A study of Mus musculus with 12 samples.

Results

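The 8 genes described here encode the subunits of AMP-activated protein kinase (AMPK) and the kinase that switches it on. They are Prkaa1 and Prkaa2 (the catalytic alpha subunits), Prkab1 and Prkab2 (the beta subunits), Prkag1, Prkag2 and Prkag3 (the gamma subunits) and Stk11, which encodes LKB1. They were picked by gene symbol from 22180 genes with a level on the arrays, and all 8 were among the 13747 genes bright enough to be tested. Each had exactly 1 transcript cluster (a set of probes read as 1 level) assigned to it alone. A further cluster shared by Prkag2 and the antisense gene Prkag2os1 was left out.

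AMPK is a trimer of an alpha, a beta and a gamma subunit that senses falling cellular energy. The gamma subunit binds AMP, ADP or ATP, the beta subunit holds the trimer together and carries a glycogen-binding module, and the alpha subunit is phosphorylated by LKB1 and then phosphorylates metabolic enzymes and regulators of transcription. In skeletal muscle the kinase is activated by contraction and is known for promoting glucose uptake and fat oxidation and for restraining mTORC1, a kinase complex that promotes protein synthesis. That activation is a matter of phosphorylation and nucleotide binding, and the arrays measured transcript levels only.

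The levels come from 12 Affymetrix whole-transcript arrays of plantaris, a mainly fast-fibred muscle of the calf, taken from male mice aged 12 weeks. There were 4 groups of 3 arrays: REDD1 knockout (KO) mice after a single bout of aerobic exercise, KO mice kept sedentary, wild-type (WT) mice after the same exercise, and WT mice kept sedentary. Exercised muscles were taken 1 hour after the bout, food was withheld from every mouse for 3 hours, and all were anaesthetised with isoflurane. Ddit4 encodes REDD1, a protein that is induced by stress and restrains mTORC1. The labels give neither the allele nor the strain, and state no pooling. With no statement that replicates came from separate litters or days, the p-values measure only the spread between these arrays. The design asks what exercise, loss of REDD1 and their combination did to each transcript.

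Ddit4 itself read 6.46, 5.72 and 6.77 in KO exercised, 5.32, 5.44 and 5.08 in KO sedentary, 9.05, 8.40 and 8.62 in WT exercised and 6.13, 5.83 and 6.02 in WT sedentary muscles (log2 expression). It was lower in KO than in WT muscle in both conditions, without overlap (average difference -1.54, SE 0.16, limma adjusted p = 0.000137). The difference was -2.37 after exercise (limma adjusted p = 0.00011) and -0.71 at rest, where its limma adjusted p was 0.411. Exercise raised Ddit4 in WT by 2.70 (limma adjusted p = 4.73e-05). In KO the exercise difference was 1.04, also without overlap (limma adjusted p = 0.0679). The deleted part of the gene is not named in the labels, so it is not known whether these probes lie in it. All 12 fast-fibre markers checked (Acta1, Ckm, Myh4 and others) were tested, and their mean level lay between -0.055 and 0.069 relative to the 12-array mean on every array. Some arrays stood apart. KO sedentary replicate 3 had matrix and fibroblast markers at 1.03 relative to the 12-array mean, against -0.27 to 0.14 on the other 11 arrays. Immediate-early genes, which respond first to stimulation, lay 0.92 above the mean in WT exercised replicate 1, against 0.04 and 0.24 in the other WT exercised arrays, and Schwann cell markers lay at 0.78 there. Schwann cell markers were also high in KO sedentary replicate 3 (0.68) and KO exercised replicate 2 (0.60), against -0.46 to 0.24 on the other 9 arrays. In bulk muscle, fewer cells of a type and less RNA per cell cannot be told apart.

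Of the 8 transcripts, none changed past the threshold (limma, Benjamini-Hochberg adjusted p under 0.05 over all genes tested) with exercise, with genotype or in their combination. The one nearest to it was Prkag3, the gamma subunit whose expression is largely restricted to skeletal muscle, whose mean was lower in exercised than in sedentary muscle of both genotypes. The alpha subunit transcripts Prkaa1 and Prkaa2 were correlated over the 12 arrays, with much of the relation carried by a few low arrays. Sequence upstream of these 3 genes, none of which was called, is shown as a description only. Each stretch is the 250 bases before the annotated start in RefSeq on assembly GRCm38.p6, written 5′ to 3′ on the gene's own strand, with every match to a searched motif in capitals. For Prkag3 this is chr1:74748956-74749205 (minus strand), for Prkaa1 chr15:5143611-5143860 (plus strand) and for Prkaa2 chr4:105109899-105110148 (minus strand).
Prkag3: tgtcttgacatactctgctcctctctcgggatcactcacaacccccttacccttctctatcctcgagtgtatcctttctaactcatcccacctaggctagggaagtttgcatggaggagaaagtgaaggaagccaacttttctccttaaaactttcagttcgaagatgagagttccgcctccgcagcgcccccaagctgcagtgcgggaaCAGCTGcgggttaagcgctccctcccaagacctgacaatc
Prkaa1: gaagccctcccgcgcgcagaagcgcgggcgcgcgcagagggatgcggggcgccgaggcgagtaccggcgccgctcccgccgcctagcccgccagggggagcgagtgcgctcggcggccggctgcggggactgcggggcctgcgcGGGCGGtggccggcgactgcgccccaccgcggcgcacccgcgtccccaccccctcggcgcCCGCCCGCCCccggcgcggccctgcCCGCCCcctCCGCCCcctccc
Prkaa2: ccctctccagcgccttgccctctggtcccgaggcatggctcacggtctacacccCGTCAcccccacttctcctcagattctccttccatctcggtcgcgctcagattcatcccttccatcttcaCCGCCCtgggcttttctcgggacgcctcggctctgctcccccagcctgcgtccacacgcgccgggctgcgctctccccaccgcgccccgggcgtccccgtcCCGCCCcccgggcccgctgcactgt

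The motifs searched, on both strands, were the E-box CANNTG, the GC box GGGCGG, the TATA box TATAAA, the CCAAT box CCAAT and the CRE half-site TGACG. They occur in 66.23%, 32.75%, 12.37%, 33.86% and 17.77%, in that order, of the 32841 mouse windows of this length. The Prkag3 window held 1 E-box, the motif read by the MyoD family of muscle factors, and none of the other motifs. Its GC content of 52.4% equalled the median of all windows (52.4%, quartiles 45.2% and 61.2%). The windows of the alpha genes were richer in G and C. Prkaa1 stood at 85.2% GC with 5 GC boxes, of which a pair overlap, and Prkaa2 at 70.0% GC with 2 GC boxes and 1 CRE half-site. Neither held an E-box, a TATA box or a CCAAT box. Matches to such short words describe the letters only.

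Prkag3 encodes the gamma3 subunit, which in fast glycolytic muscle is found mainly in trimers with the products of Prkaa2 and Prkab2. It read 7.32, 7.40 and 7.76 in KO exercised muscles and 8.01, 7.89 and 7.72 in KO sedentary muscles (log2 expression). In WT mice the levels were 7.55, 7.98 and 7.70 in exercised and 7.91, 8.12 and 8.08 in sedentary muscles. The highest exercised array of each genotype reached into the range of its sedentary group, so the groups overlapped in both. Group means were 7.49 ± 0.23 in KO exercised, 7.88 ± 0.14 in KO sedentary, 7.74 ± 0.22 in WT exercised and 8.04 ± 0.11 in WT sedentary muscles (SD, n = 3 each). The log2 difference of exercised minus sedentary muscle was -0.38 in KO (SE 0.14, 95% interval -0.67 to -0.09) and -0.29 in WT (SE 0.14, interval -0.58 to -0.0026). Averaged over genotypes the difference was -0.34 (SE 0.10, interval -0.54 to -0.13), a ratio of 0.792 with an interval of 0.687 to 0.913.

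The Prkag3 differences did not pass the threshold. In limma's fit the exercise effect averaged over genotypes had an unadjusted p of 0.00321 and an adjusted p of 0.114, the effect in KO an adjusted p of 0.369 and the effect in WT one of 0.606. Prkag3 was the only member with an unadjusted p under 0.05 in these 3 comparisons, where 11.2% (averaged), 8.93% (KO) and 8.21% (WT) of all genes had one, so 1 member in 8 is near the background. Leaving out single arrays and changing the processing moved the averaged difference between -0.40 and -0.27, with adjusted p between 0.0531 and 0.303. Without WT exercised replicate 1 it was -0.289, without KO sedentary replicate 3 it was -0.375, and without both it was -0.327. The exercise effects of the 2 genotypes differed by -0.09 (KO minus WT, SE 0.19, interval -0.50 to 0.32, adjusted p = 0.997).

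Between genotypes, KO minus WT, the Prkag3 difference was -0.25 after exercise (SE 0.14, interval -0.54 to 0.04; -0.383 without KO exercised replicate 3 and -0.131 without WT exercised replicate 2) and -0.16 at rest (SE 0.14, interval -0.45 to 0.13). The difference at rest was -0.0856 when KO sedentary replicate 3 was left out. The average of both conditions over all arrays was -0.21 (SE 0.10, interval -0.41 to -0.0009, limma adjusted p = 0.53). Ordered by mean, WT sedentary was highest, then KO sedentary, WT exercised and KO exercised. The steps from WT sedentary to KO sedentary (0.16) and from WT exercised to KO exercised (0.25) were larger than the larger SD of the pair, and the middle step was not. Slow-fibre markers were uneven over the same arrays, at 0.29, -0.11 and 0.63 relative to the 12-array mean in KO exercised, -0.24, -0.62 and 0.61 in KO sedentary, -0.12, -0.10 and -0.01 in WT exercised and 0.06, 0.02 and -0.41 in WT sedentary muscles. Endothelial markers moved with exercise: their mean level was -0.195 to -0.041 in KO exercised, 0.103 to 0.141 in KO sedentary, -0.091 to -0.027 in WT exercised and 0.058 to 0.108 in WT sedentary muscles. For exercise averaged over genotypes their median difference was -0.24, with 8 of 10 negative, and Cdh5 and Kdr were called lower (limma). Over all genes the median was -0.01 in this comparison, 45.72% were positive and 1.6% were called in either direction. The part of slow-fibre and endothelial markers in the Prkag3 levels was not tested.

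**Figure D1:**
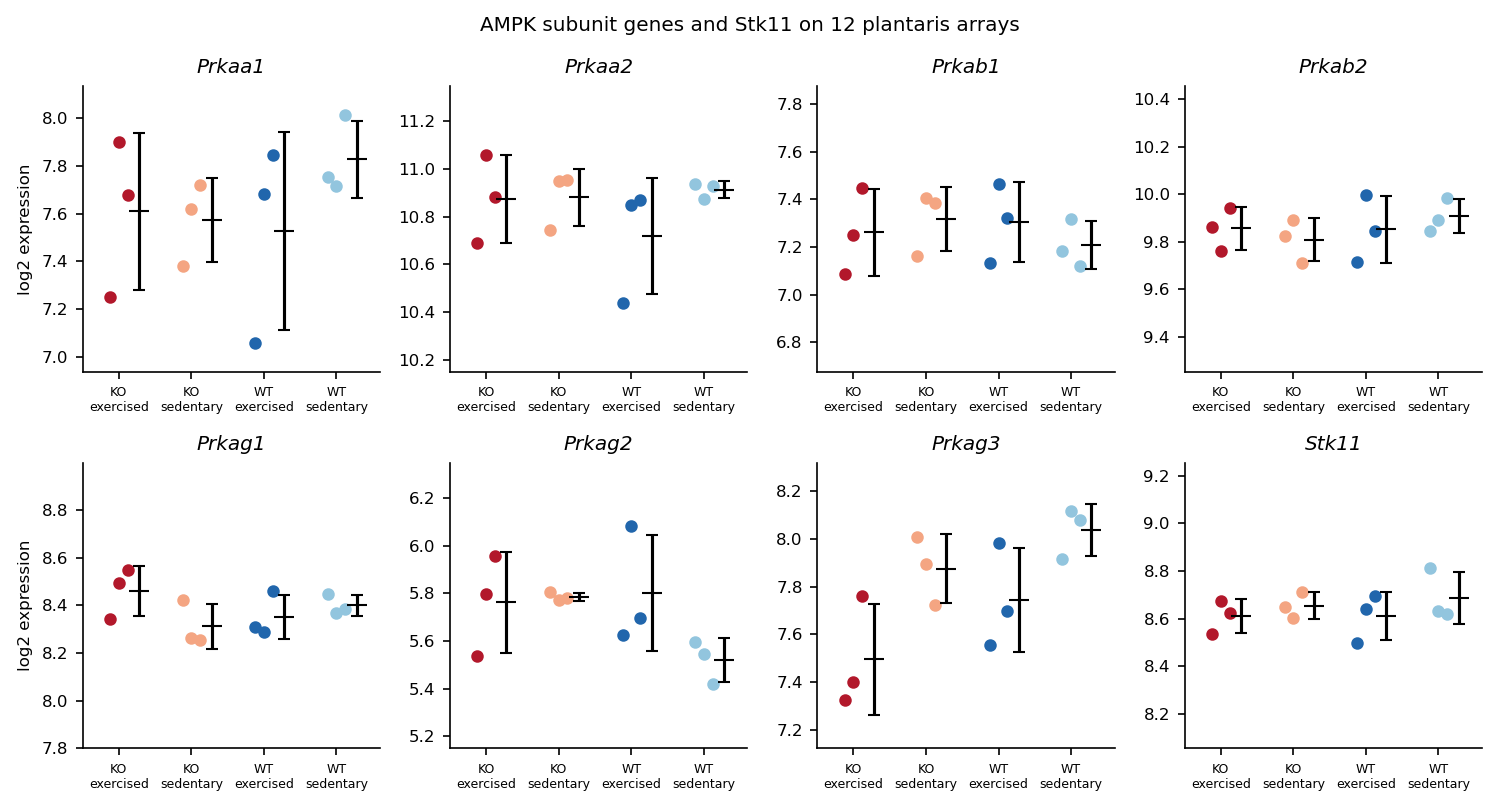
Log2 expression of the 8 genes on each of the 12 arrays (points, 3 per group in replicate order), with the group mean and SD beside them (bars). Every panel spans the same number of log2 units, so Prkaa1, with a range of 0.95 over the 12 arrays, spreads most and Prkab2 and Prkag1, with 0.29 each, spread least; in Prkag3 both exercised means lie below both sedentary means.

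Prkaa2 encodes alpha2, the main catalytic subunit of skeletal muscle. It read 10.69, 11.06 and 10.88 in KO exercised, 10.74, 10.95 and 10.95 in KO sedentary, 10.44, 10.85 and 10.87 in WT exercised and 10.94, 10.87 and 10.93 in WT sedentary muscles. The first WT exercised array was the lowest of the 12. The WT exercised arrays all lay under the WT sedentary ones, though the nearest pair differed by under 0.01 (10.8701 and 10.8730). The exercise effect was -0.01 in KO (SE 0.12, interval -0.26 to 0.25) and -0.19 in WT (SE 0.12, interval -0.44 to 0.06). Without WT exercised replicate 1, the array with the high immediate-early level, the WT effect was -0.0524.

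Prkaa1 encodes alpha1, the catalytic subunit found in most tissues and in the non-muscle cells of muscle as well as in fibres. It read 7.25, 7.90 and 7.68 in KO exercised, 7.38, 7.62 and 7.72 in KO sedentary, 7.06, 7.68 and 7.85 in WT exercised and 7.75, 7.72 and 8.01 in WT sedentary muscles. The spread was widest in both exercised groups, with an SD of 0.33 in KO and 0.42 in WT, against 0.18 in KO sedentary and 0.16 in WT sedentary muscles. Exercise effects were 0.04 in KO (SE 0.19, interval -0.37 to 0.45) and -0.30 in WT (SE 0.19, interval -0.71 to 0.11), and they differed by 0.33 (SE 0.27, interval -0.24 to 0.91). KO minus WT was 0.08 after exercise (interval -0.33 to 0.49) and -0.25 at rest (interval -0.66 to 0.15). All these intervals hold 0. Without WT exercised replicate 1 the exercise effect in WT was -0.0634 and KO minus WT after exercise was -0.155.

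Across the 12 arrays, the alpha transcripts were correlated. Pearson's r was 0.891 (permutation p = 0.00022, 0.00616 after Benjamini-Hochberg over the 28 pairs of members), and Spearman's rho was 0.664 (permutation p = 0.0218, adjusted 0.306). The permutations exchanged arrays freely across the 4 groups, so these p-values do not allow for differences between groups. KO exercised replicate 1 and WT exercised replicate 1 were low in both genes. Without these 2 arrays, the farthest from the Prkaa1 median, r was 0.662. That value still includes KO sedentary replicate 1, the next lowest in both genes (7.38 for Prkaa1 and 10.74 for Prkaa2). Without WT exercised replicate 1 alone r was 0.806. Taken as deviations from the group means, with the low arrays kept, r was 0.952, for which no p-value was computed. The relation was thus also seen after group means were removed, but not apart from the low arrays. In WT sedentary muscle Prkaa2 hardly varied, with an SD of 0.04. Many other genes showed it too: 365 of the 13746 other tested genes had an r of at least 0.8 with Prkaa1, and Prkaa2 was 46th among them. For Prkaa2 there were 305 such genes, with Prkaa1 55th.

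**Figure D2:**
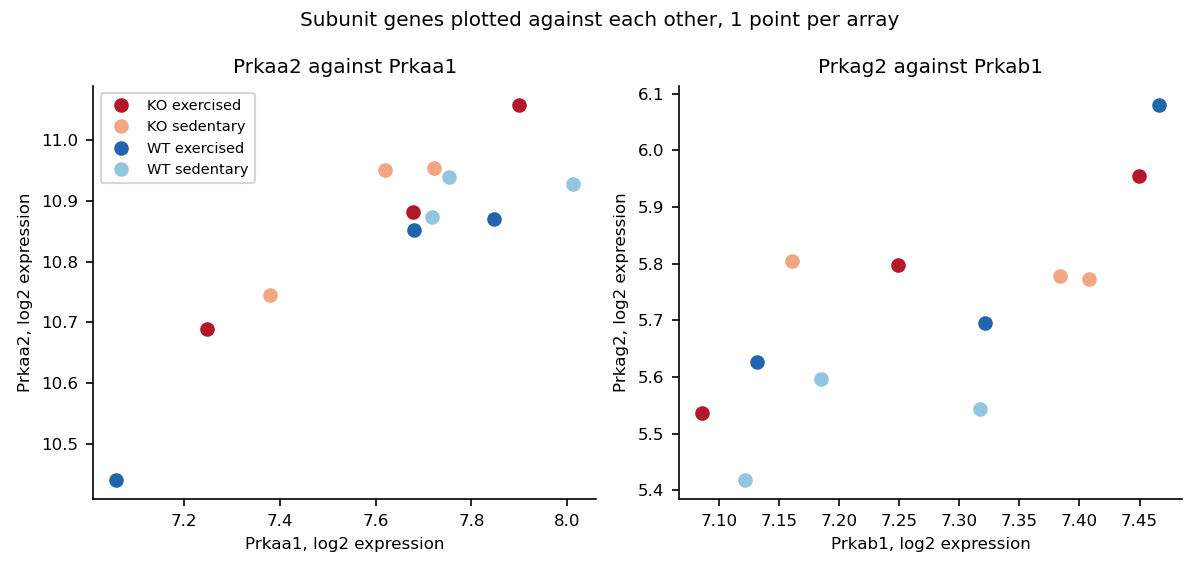
Log2 expression of Prkaa2 against Prkaa1 (left) and of Prkag2 against Prkab1 (right), 1 point per array, coloured by group. On the left the low end is held by the first replicates of WT exercised, KO exercised and KO sedentary muscle (r = 0.891 over 12 arrays); on the right the points scatter more (r = 0.748).

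Of the other pairs, Prkab1 and Prkag2 had the next highest r, 0.748 (permutation p = 0.00497, adjusted 0.0696), with a rho of 0.713 (permutation p = 0.0118, adjusted 0.306) and an r of 0.622 without the 2 arrays farthest from the Prkab1 median. Stk11 gave an r of 0.693 with Prkaa2 (permutation p = 0.0179, adjusted 0.167; rho 0.490, permutation p = 0.111) and of 0.645 with Prkaa1 (permutation p = 0.0242, adjusted 0.169; rho 0.601, permutation p = 0.0423). Without the 2 farthest arrays these were 0.221 and 0.124, so both rested on those arrays. With its usual partners, Prkag3 had an r of 0.238 with Prkaa2 (permutation p = 0.468, adjusted 0.749; rho 0.049, permutation p = 0.886) and of 0.544 with Prkab2 (permutation p = 0.069, adjusted 0.386; rho 0.545, permutation p = 0.0705). Without the 2 farthest arrays these were -0.623 and 0.552, and for deviations from group means 0.249 and 0.805.

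Prkag2 encodes gamma2, best known from heart, where mutations in human PRKAG2 cause glycogen-storage cardiomyopathy. It read 5.54, 5.80 and 5.96 in KO exercised, 5.81, 5.77 and 5.78 in KO sedentary, 5.63, 6.08 and 5.69 in WT exercised and 5.60, 5.54 and 5.42 in WT sedentary muscles. The WT sedentary arrays were low: they lay under all 3 WT exercised and all 3 KO sedentary arrays, the nearest pair of WT arrays by 0.03. The exercise effect was -0.02 in KO (SE 0.14, interval -0.31 to 0.27) and 0.28 in WT (SE 0.14, interval -0.0078 to 0.57, limma adjusted p = 0.627). The WT effect rested partly on WT exercised replicate 2, the array at 6.08: it was 0.141 without that array, and at most 0.368, without WT exercised replicate 1. KO minus WT was -0.04 after exercise (interval -0.33 to 0.25) and 0.27 at rest (SE 0.14, interval -0.02 to 0.55, limma adjusted p = 0.687). The exercise effects differed between genotypes by -0.30 (SE 0.19, interval -0.71 to 0.10, limma adjusted p = 0.997), or by -0.40 to -0.164 with 1 array left out, the smaller without WT exercised replicate 2.

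Groups that do not overlap were common over the whole table. In WT, exercised and sedentary arrays were apart for 12.9% of all genes and for 2 members, Prkaa2 and Prkag2. In KO they were apart for 13.9% of all genes and for 0 members. KO and WT were apart for 13.1% of genes at rest and 1 member, Prkag2, and for 11.7% of genes after exercise and 0 members. With 8 members, these counts are near the background.

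Prkag1 encodes gamma1, the gamma subunit found in most tissues. Its levels were 8.34, 8.49 and 8.55 in KO exercised, 8.42, 8.26 and 8.25 in KO sedentary, 8.31, 8.29 and 8.46 in WT exercised and 8.45, 8.37 and 8.38 in WT sedentary muscles. All 12 arrays lay within 0.29 and every pair of groups overlapped. Exercise effects were 0.15 in KO (SE 0.09, interval -0.05 to 0.35) and -0.05 in WT (SE 0.09, interval -0.25 to 0.15).

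Prkab2 encodes beta2, the beta subunit that predominates in skeletal muscle. It read 9.86, 9.76 and 9.94 in KO exercised, 9.82, 9.89 and 9.71 in KO sedentary, 9.72, 9.997 and 9.85 in WT exercised and 9.85, 9.89 and 9.98 in WT sedentary muscles. No group stood out. Exercise effects were 0.05 in KO (SE 0.09, interval -0.15 to 0.25) and -0.05 in WT (SE 0.09, interval -0.25 to 0.14), and KO minus WT was 0.00 after exercise (interval -0.19 to 0.20) and -0.10 at rest (interval -0.30 to 0.10).

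Prkab1 encodes beta1, the beta subunit that predominates in mouse liver. The arrays gave 7.09, 7.25 and 7.45 in KO exercised, 7.16, 7.41 and 7.38 in KO sedentary, 7.13, 7.47 and 7.32 in WT exercised and 7.18, 7.32 and 7.12 in WT sedentary muscles. All 4 groups overlapped. The exercise and genotype differences ran from -0.06 (exercise in KO, interval -0.32 to 0.20) to 0.11 (KO minus WT at rest, interval -0.15 to 0.37), and the exercise effect in WT was 0.10 (interval -0.16 to 0.36). The exercise effects differed between genotypes by -0.15 (interval -0.52 to 0.21).

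Stk11 encodes LKB1, the kinase that phosphorylates the alpha subunits and a family of related kinases. It read 8.54, 8.67 and 8.62 in KO exercised, 8.65, 8.60 and 8.71 in KO sedentary, 8.50, 8.64 and 8.69 in WT exercised and 8.81, 8.63 and 8.62 in WT sedentary muscles. The range over 12 arrays was 0.32, from 8.50 in WT exercised replicate 1 to 8.81 in WT sedentary replicate 1. Exercise effects were -0.04 in KO (SE 0.09, interval -0.24 to 0.15) and -0.08 in WT (SE 0.09, interval -0.27 to 0.12), and KO minus WT was 0.00 after exercise (interval -0.20 to 0.20) and -0.03 at rest (interval -0.23 to 0.16).

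The order of the group means was within the spread for most members. Of all neighbouring steps in that order, only 3 were larger than the larger SD of the pair of groups: the 2 of Prkag3 given above, and that between KO exercised and WT sedentary muscle in Prkag2 (0.24, against an SD of 0.21). Neighbouring groups of Prkaa1, Prkaa2, Prkab1, Prkab2, Prkag1 and Stk11 did not differ beyond their spread.

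**Figure D3:**
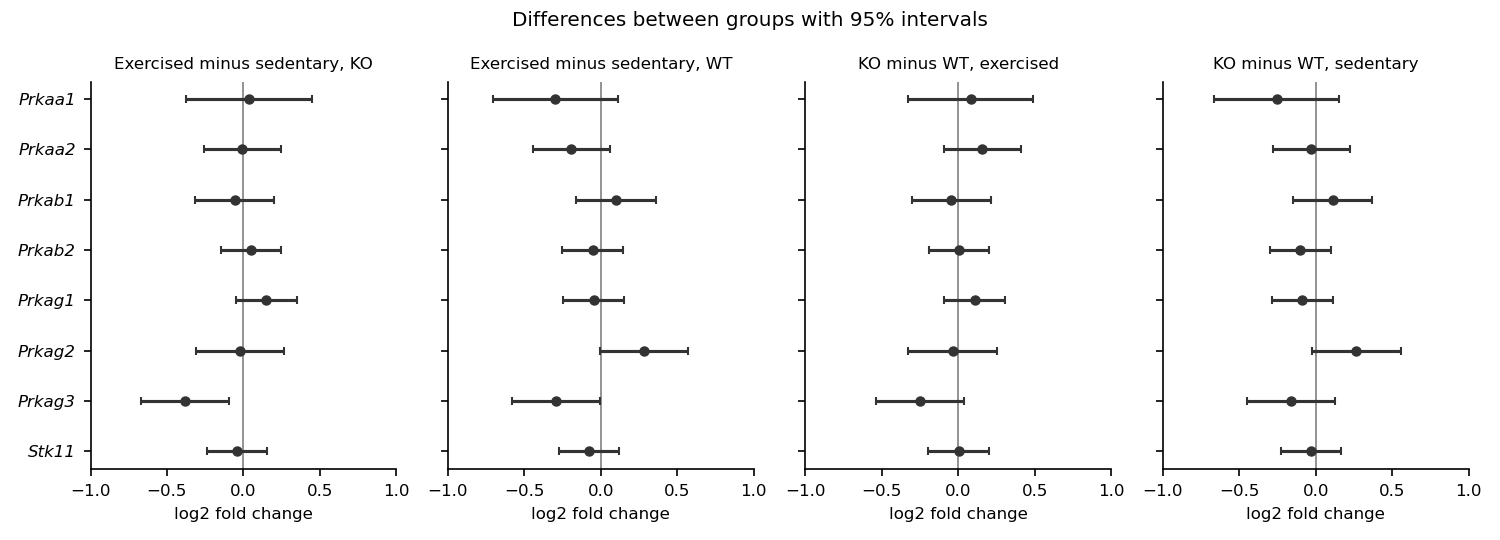
Log2 fold changes of the 8 genes (points) with 95% intervals from limma (bars) for exercised minus sedentary in KO and in WT and for KO minus WT after exercise and at rest, 3 arrays per group. Only the intervals of Prkag3 for exercise leave out 0, in WT by a margin of 0.0026, and the widest intervals are those of Prkaa1.

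With 0 of 8 members called in every comparison, the intervals say what sizes remain possible. The share of all genes called was 0.276% for exercise in KO, 0.567% for exercise in WT and 1.6% for exercise averaged over genotypes. It was 0.175% for KO against WT after exercise, 0.138% at rest and 0.546% on average, and 0.0% for the difference of exercise effects. At such shares, none called among 8 is near the background. Over all members, the widest interval allowed a difference, in either direction, of up to 1.59-fold for exercise in KO and 1.63-fold for exercise in WT, 1.45-fold and 1.58-fold for genotype after exercise and at rest, and 1.88-fold for the difference of exercise effects. Larger differences of these transcripts lay outside the intervals.

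At an unadjusted p under 0.05, limma named Prkag3 alone among the members for genotype averaged over conditions (9.36% of all genes). It named 0 members for KO against WT after exercise (6.58% of all genes), 0 at rest (7.7%) and 0 for the difference of exercise effects (4.51%). In all, 52 of the 56 intervals of members held 0, and the other 4 were those of Prkag3. The median log2 difference of the members was -0.01 for exercise in KO and -0.07 for exercise in WT, where that of all tested genes was -0.00 and -0.02.

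The transcripts whose levels were most like each member over the 12 arrays were taken by Pearson's r, as a description, since all share the same arrays. Predicted and numbered gene models were passed over, which skipped a closer one for Prkaa2 and closer ones for Prkab2. Prkag3 was followed most closely by Gba2, a glucosylceramidase (r = 0.960), and Helb, a DNA helicase (0.921). For Prkaa2 they were Gys1, muscle glycogen synthase and a known AMPK substrate (0.966), and Rragd, a Rag GTPase of the mTORC1 pathway (0.951). Prkaa1 went with Tbp, the TATA-binding protein (0.967), and Prepl (0.962). The nearest to Stk11 were Gps2 (0.947) and the noncoding RNA gene Ftx (0.943). Among named genes, those of the remaining members were less close, from 0.812 (Tlcd3b with Prkag2) to 0.905 (Fancf with Prkab2).

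Genes around the kinase were read in 6 lists, each described by counts and by its median difference for exercise averaged over genotypes, where the median of all genes was -0.01, 45.72% of all genes were positive and 11.2% had an unadjusted p under 0.05. In that comparison 1.6% of all genes were called, so 0 or 1 called in a short list is near the background. Of the scaffolds of LKB1 and the other kinases upstream of AMPK, 6 of 7 were tested, with a median of -0.01 and 1 at an unadjusted p under 0.05. Cab39, which encodes the MO25 scaffold that activates LKB1, rose by 0.32 (SE 0.07, limma adjusted p = 0.0298), with levels of 9.85, 10.07 and 10.03 in KO exercised, 9.44, 9.73 and 9.70 in KO sedentary, 9.80, 10.07 and 9.95 in WT exercised and 9.66, 9.69 and 9.61 in WT sedentary muscles. The exercised arrays lay above the sedentary ones in both genotypes. The call needed most of the arrays. Among WT arrays it was lost without sedentary replicate 1 (0.325), 2 (0.334) or 3 (0.313) or exercised replicate 2 (0.292) or 3 (0.322). Among KO arrays it was lost without sedentary replicate 1 (0.278) or exercised replicate 2 (0.303) or 3 (0.312). The limma adjusted p in these fits was up to 0.086. The call held without WT exercised replicate 1, KO sedentary replicate 2 or 3, or KO exercised replicate 1. It was also lost in limma without the intensity trend (adjusted p = 0.0693) and without moderation (0.131). Within a genotype Cab39 did not pass, with differences of 0.36 in KO and 0.29 in WT. Camkk2, the calcium-dependent kinase that can also activate AMPK, had a difference of -0.19 (adjusted p = 0.532).

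LKB1 also activates a set of AMPK-related kinases, of which 10 of 12 were tested with a median of -0.02 and 1 at an unadjusted p under 0.05. Sik1, a salt-inducible kinase whose gene is switched on by cAMP signalling, was the 1 that rose. It read 8.14, 8.20 and 7.73 in KO exercised, 6.73, 6.74 and 7.17 in KO sedentary, 8.33, 8.14 and 8.48 in WT exercised and 6.50, 6.51 and 6.80 in WT sedentary muscles, without overlap in either genotype. The exercise effect was 1.14 in KO (SE 0.15, limma adjusted p = 0.00264) and 1.72 in WT (SE 0.15, limma adjusted p = 0.00007). The KO call was lost without limma's moderation of the spread (adjusted p = 0.128). The effects differed by -0.58 (interval -1.04 to -0.11), which did not pass over all genes (limma adjusted p = 0.997). The next nearest, Nuak1, Mark2 and Nuak2, had averaged differences of -0.16, -0.17 and -0.10, none past the threshold.

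Of 10 phosphatases and partners that modulate AMPK, all were tested and 0 were called, with 2 at an unadjusted p under 0.05. The median was 0.14, and 9 of 10 differences were positive. Flcn, which encodes folliculin (0.29, limma adjusted p = 0.0943), and Fnip2, which encodes a partner of folliculin that binds AMPK (0.35, limma adjusted p = 0.109), came nearest to the threshold. In KO muscle 9 of 10 were positive with a median of 0.17, where 49.41% of all genes were positive. In WT muscle it was 6 of 10 with a median of 0.02, where 44.98% of all genes were positive. An unadjusted p under 0.05 in limma was reached by 5 in KO (8.93% of all genes) and 0 in WT (8.21%). The difference of exercise effects between genotypes was not called for any of them, where 0.0% of all genes were called.

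Genes that encode substrates of AMPK were tested for 23 of 24 members, with a median of -0.03, 11 of 23 positive and 6 at an unadjusted p under 0.05. Ppargc1a, the transcriptional coactivator PGC-1alpha of mitochondrial biogenesis, was the 1 called. It read 10.75, 11.003 and 10.95 in KO exercised, 8.70, 9.61 and 9.29 in KO sedentary, 10.15, 10.46 and 10.88 in WT exercised and 9.33, 8.98 and 9.24 in WT sedentary muscles. It rose by 1.70 in KO (SE 0.20, limma adjusted p = 0.001) and by 1.31 in WT (SE 0.20, limma adjusted p = 0.00429), and the effects differed by 0.39 (interval -0.21 to 0.998). Without limma's moderation of the spread, both calls were lost (adjusted p = 0.128 in KO and 0.172 in WT). Tbc1d1, a regulator of glucose transporter traffic, had an averaged exercise difference of 0.25 (limma adjusted p = 0.101). In KO against WT it had 0.48 after exercise (limma adjusted p = 0.0795) and 0.33 averaged over conditions (limma adjusted p = 0.0515), again not past the threshold.

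A list of muscle transcripts linked to AMPK, which also holds Ppargc1a, had 15 of 16 members tested and a median of 0.18, with 11 of 15 positive and 8 at an unadjusted p under 0.05. Hk2, the hexokinase that traps glucose in the fibre, read 10.67, 10.79 and 10.49 in KO exercised, 9.50, 9.71 and 10.15 in KO sedentary, 10.48, 10.38 and 10.59 in WT exercised and 9.88, 9.76 and 9.999 in WT sedentary muscles. It rose by 0.73 averaged over genotypes (SE 0.10, limma adjusted p = 0.000635) and by 0.86 in KO (SE 0.14, limma adjusted p = 0.0105), and had a difference of 0.60 in WT (limma adjusted p = 0.0739). The KO call was lost without KO exercised replicate 1 (0.854), KO sedentary replicate 1 (0.722) or KO sedentary replicate 2 (0.825), at adjusted p of 0.0571, 0.0558 and 0.0522. It was also lost with only the groups compared in the fit (adjusted p = 0.0708) and without moderation in limma (0.218).

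Trim63, the muscle ubiquitin ligase MuRF1, was in the same list. It read 11.18, 10.56 and 10.27 in KO exercised, 9.86, 10.10 and 9.47 in KO sedentary, 10.37, 9.64 and 10.06 in WT exercised and 9.59, 9.26 and 9.09 in WT sedentary muscles, and rose with exercise by 0.79 averaged over genotypes (SE 0.16, limma adjusted p = 0.0193). That call was lost without WT exercised replicate 3 (0.778), WT sedentary replicate 2 (0.772) or WT sedentary replicate 3 (0.731), and also without both WT exercised replicate 1 and KO sedentary replicate 3 (0.614), and in limma without moderation (adjusted p = 0.219). Within a genotype Trim63 did not pass, with differences of 0.86 in KO (limma adjusted p = 0.17) and 0.71 in WT (limma adjusted p = 0.3). Fbxo32, the ligase atrogin-1, had an averaged exercise difference of 0.32 (limma adjusted p = 0.31). In KO against WT, Fbxo32 had 0.72 after exercise (limma adjusted p = 0.198) and 0.51 averaged over conditions (limma adjusted p = 0.094). The averaged genotype difference of Trim63 was 0.57 (limma adjusted p = 0.162).

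Enzymes that set the adenylate and phosphocreatine pools, whose nucleotides AMPK reads, were tested for 13 of 15 members with a median of 0.02 and 0 called, 1 of them at an unadjusted p under 0.05. That 1 was the mitochondrial creatine kinase gene Ckmt2, at 0.13 (limma adjusted p = 0.444). The muscle AMP deaminase gene Ampd1 had -0.12 and the mitochondrial adenylate kinase gene Ak4 had 0.17. Across the 6 lists, no gene was called for genotype in either condition, on average, or for the difference of exercise effects. The shares of all genes called were 0.175% after exercise, 0.138% at rest, 0.546% on average and 0.0% for the difference. At such shares, none called in the lists is near the background. Per list, 0 to 5 genes had an unadjusted p under 0.05 in limma. The most were 5 of the 15 tested muscle transcripts linked to AMPK, both at rest and averaged over conditions. Of all genes, 7.7% and 9.36% had such a p there. That list had 2 after exercise (6.58% of all genes) and 0 for the difference of exercise effects (4.51%).

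**Figure D4:**
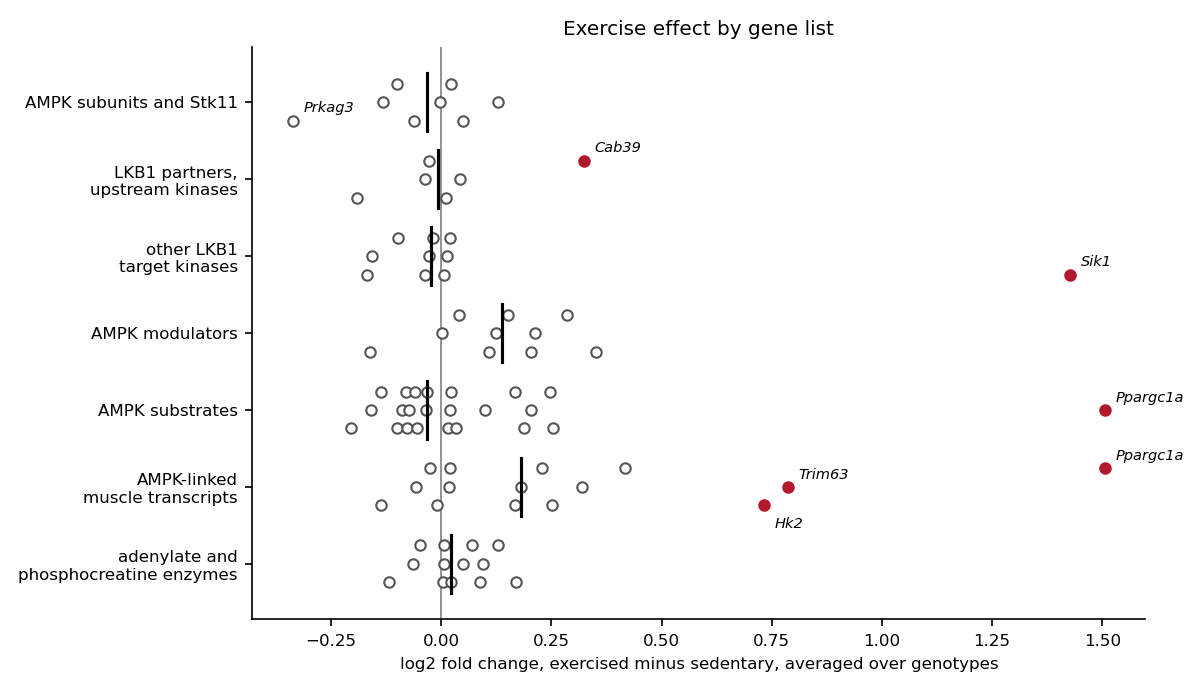
Log2 difference of exercised minus sedentary muscle, averaged over genotypes, for each tested gene of the 8 members and of the 6 lists (points), with the median of each list (vertical bar). Filled points are genes called at an adjusted p under 0.05: Cab39, Sik1, Ppargc1a (in 2 lists), Trim63 and Hk2; the points of the members are all open, with Prkag3 farthest below 0 at -0.34.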

How the data were processed

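The deposited table gives 1 log2 level for each transcript cluster and array (lowest 0.357, highest 13.859), a scale inferred from that range. The log base, background correction and normalisation are not given in the sources used here, and Partek, without a version, is the only software in the submitters' processing notes. Array medians lay between 4.52 and 4.60, and Pearson's r between arrays was 0.967 to 0.985. The number of arrays limits the precision.

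Gene symbols came from the platform annotation, with 23521 of 41345 clusters paired with exactly 1 symbol. A gene with several clusters was represented by its brightest on average. Genes above the table median (4.56) in at least 3 arrays were tested. All 12 arrays were fitted in 1 model with a mean per group (R 4.3.3, limma 3.58.1, lmFit and eBayes with an intensity trend), and 7 contrasts were adjusted by Benjamini-Hochberg over all genes tested. P-values are two-sided. Correlations used 100000 permutations of all 12 arrays, without regard to group. The code was tested on simulated data. Replicates are numbered in the order of the samples and pair nothing.

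The members and the gene lists were chosen with earlier results of these data known. The rule for named genes took all 8 members, Ddit4, up to 4 genes per list (the largest called differences for exercise averaged over genotypes, then the smallest p) and the 2 tested genes with the highest Pearson's r to each member, passing over predicted or numbered gene models. Alternatives covered the filter, scaling, prior, moderation, array weights, arrays in the fit, the cluster of a gene and each array left out in turn. Motifs were searched in RefSeq windows of 250 bases with no unknown base. The array's genome build is not given in the sources used here, so coordinates belong to the RefSeq windows only.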

Additional observations from a re-analysis of the deposited data

How the results depend on the processing

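No member was called under any of the 22 alternatives, and 1163 of 1232 member values kept their sign, so 69 values of 23 results turned. Many of the 1232 could not turn. The filter, prior, moderation, arrays in the fit and cluster of a gene leave a member's difference as it was. So does leaving out an array of a group that is not compared. The count of kept signs is therefore no measure of stability. The largest main difference among those 23 was 0.13 in size. No paired analysis was possible because the sample labels number the arrays singly and share no number across groups. Levels are relative within each gene, 3 arrays per group bound the sizes that can be seen, and alternatives share the same arrays. In each case below the cause was not tested.

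With array weights the value turned for exercise in KO of Prkag2 (0.054), for KO against WT after exercise of Prkaa1 (-0.0439), Prkab2 (-0.0149) and Stk11 (-0.0317), and for averaged exercise of Prkab2 (0.0202). With median centring it turned for exercise in KO of Prkaa2 (0.00831), for KO against WT after exercise of Prkab2 (-0.00692) and Stk11 (-0.00872), for averaged exercise of Prkab2 (0.0103) and for averaged genotype of Prkag1 (-0.00109). With quantile normalisation it turned for exercise in KO of Prkag2 (0.000473), for the difference of exercise effects of Stk11 (-0.00219) and for KO against WT after exercise of Prkab2 (-0.0241) and Stk11 (-0.0134). Leaving out both WT exercised replicate 1 and KO sedentary replicate 3, an alternative chosen after seeing the data, turned exercise in WT of Prkab2 (0.0136), exercise in KO of Prkaa2 (0.029), the difference of effects of Prkab2 (-0.0136), KO against WT after exercise of Prkaa1 (-0.155), Prkab2 (-0.0653) and Stk11 (-0.0555), averaged exercise of Prkaa1 (0.0232) and Prkab2 (0.00685), and averaged genotype of Prkaa2 (-0.0249) and Prkab1 (-0.0278).

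Leaving out single arrays turned further values, given as lowest to highest. For exercise in KO these were Prkaa1 (-0.11 to 0.216), Prkaa2 (-0.0975 to 0.0874), Prkab1 (-0.15 to 0.0317) and Prkag2 (-0.119 to 0.0909), and for exercise in WT Prkab2 (-0.126 to 0.0136). For the difference of effects they were Prkag3 (-0.222 to 0.0307) and Stk11 (-0.0283 to 0.0765). For KO against WT after exercise they were Prkaa1 (-0.155 to 0.26), Prkab1 (-0.139 to 0.0428), Prkab2 (-0.0653 to 0.0749), Prkag2 (-0.134 to 0.102) and Stk11 (-0.0555 to 0.0431), and at rest Prkaa2 (-0.0656 to 0.0389) and Stk11 (-0.0674 to 0.0295). For averaged exercise they were Prkab1 (-0.0258 to 0.0652) and Prkab2 (-0.0391 to 0.031). For averaged genotype they were Prkaa1 (-0.205 to 0.00308), Prkaa2 (-0.00718 to 0.11), Prkab1 (-0.0147 to 0.0763), Prkag1 (-0.0171 to 0.04) and Stk11 (-0.0445 to 0.0153).

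Of 264 values for 12 calls of list genes and Ddit4, 241 stayed called and 23 did not, and none turned. Here too, many values could not turn. The number of all genes called moved from 38 to between 0 and 83 for exercise in KO, from 78 to between 12 and 127 for exercise in WT, from 24 to between 1 and 89 for KO against WT after exercise, from 19 to between 1 and 27 at rest, from 220 to between 67 and 348 for averaged exercise and from 75 to between 23 and 193 for averaged genotype. The lowest of each came without moderation of the spread and the highest with array weights, except at rest, where it came without WT exercised replicate 1. For the difference of exercise effects limma called 0 genes under every alternative, with 620 at an unadjusted p under 0.05 in the fit of all arrays, where exercise in KO had 1227.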
